A study of Homo sapiens with 6 samples.

Results

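This report describes 47 genes that are typical of neurons and their RNA in Meg-01 cells, out of 58735 genes in the count table. They comprise synaptic, axonal and neural adhesion genes, the repressor REST and its corepressors RCOR1 and RCOR2, and they were found by their gene symbols, all of which were in the table. IGLON5, FAM131B, NPAS1 and OLFM2 are included because their RNA was higher after treatment in these same libraries, so their change is given as a description without a test. The other 43 genes were named by their role, with earlier results of these data known, and the question was whether they moved in the same direction. Meg-01 is an established human megakaryoblastic cell line. Of the 6 RNAseq libraries, 3 came from untreated cells and 3 from cells given 500 µM sodium propionate (C3, a fatty acid that gut bacteria produce) for 48 hours by the labels, whereas the methods also name a shorter incubation. For the untreated cells the labels give no culture time. All libraries come from this single line, and the study calls them technical replicates, and their spread may therefore be smaller than that of independent cultures. Library totals were 16159449 to 22821722 counts.

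Neurons release transmitter from vesicles that are docked by SNARE proteins such as syntaxin, SNAP25 and synaptobrevin and triggered by the calcium sensor synaptotagmin, and their long axons are filled with neurofilaments and microtubules. Outside the nervous system many of these genes are kept silent by REST, a zinc finger repressor that binds the RE1 motif and recruits CoREST proteins (the RCOR genes) together with histone deacetylases and the demethylase KDM1A. Short-chain fatty acids are known as inhibitors of histone deacetylases. Megakaryocytes share part of this machinery, since platelets also secrete granules by SNARE proteins.

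The genes called higher were NEFL, NEFM, NEFH, MAPT and MAP1B of the axonal cytoskeleton, NCAM1, CELSR2 and NLGN2 of neural adhesion, SYT5 and STX1A of synaptic release, and RCOR2. Differences between these roles were not tested. A gene was called higher or lower at an adjusted p-value below 0.01 with a fold change above 1.3, the gates of the study, in edgeR's quasi-likelihood test over the 15078 genes that reached 10 counts in 3 or more libraries. Of the 43 genes, 33 were tested, and 11 of them (33.3%) were called higher and 0 lower. Over all tested genes, 5.05% were called higher and 1.47% lower. DESeq2 called 9 higher and 0 lower of the 30 to which it gave an adjusted p, against 4.13% higher of the 13568 genes with one. At an adjusted p-value below 0.05 without a fold gate in edgeR, 13 were higher and 0 lower, against 11.0% and 8.77% of all tested genes. At an unadjusted p-value below 0.05 in edgeR 16 were higher and 1 was lower. Among all tested genes, 16.8% were higher and 15.3% lower at that unadjusted level. The 33 tested genes had a median log2 fold change of 0.28, from -0.43 to 1.53, against 0.0021 over all tested genes. In 16 of the 33 every C3 library exceeded every control library and in 0 the reverse held, against 17.5% and 16.9% of all tested genes. Of the tested genes, NRCAM and SYN1 had a control library under 10 counts, and neither was called. The genes were picked with results known, so these counts describe them and are not a test of the list.

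Calls were found at low and at high levels. Below a mean normalized count of 200, 5 of 15 of these genes were called higher, against 6.31% of all tested genes. From 200 to 1000 it was 2 of 11, against 5.95%. Above 1000 it was 4 of 7, against 1.92%.

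**Figure D1:**
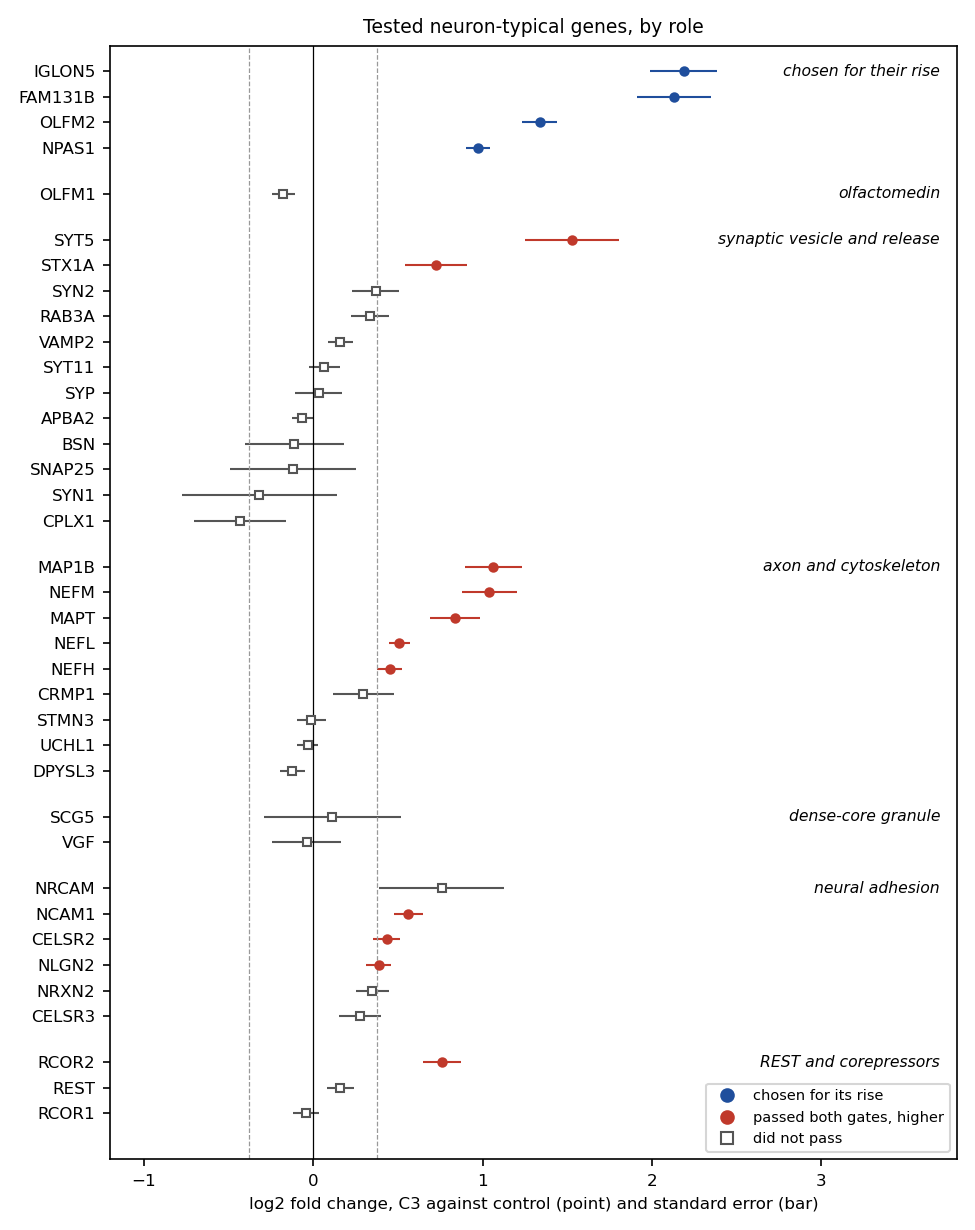
Log2 fold change (point) and standard error (bar) of C3 against control cells for the 37 tested genes, in rows grouped by role; the dashed lines mark a fold change of 1.3. Blue points are the 4 genes chosen for their rise, given as a description, and red points, which passed both gates, run from NLGN2 at 0.39 to SYT5 at 1.53.

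IGLON5, an immunoglobulin-like cell adhesion gene of the IgLON family, had the largest change of the 37 tested genes in the main analysis. Its TMM-normalized counts were 28.4, 23.3 and 25.1 in control libraries 1 to 3 and 124, 109 and 119 in C3 libraries 1 to 3, a 4.55-fold difference. FAM131B, a gene of little known function, had 22.5, 33.9 and 40.6 in control cells and 151, 104 and 163 after C3, a 4.37-fold difference. Without control replicate 2, control replicate 3 or C3 replicate 2, the change of FAM131B was the larger. Both genes were low in control cells.

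OLFM2, which encodes a secreted olfactomedin-domain glycoprotein, had 168, 158 and 158 in control cells and 403, 433 and 387 after C3. NPAS1, a basic helix-loop-helix transcription factor gene of inhibitory neurons, had 595, 563 and 593 against 1188, 1147 and 1102. Their log2 fold changes were 1.34 (standard error, SE, 0.10) and 0.97 (SE 0.071). NPAS1 had the highest control level of these 4 genes per exon length, at 12.2 ± 0.37 FPKM (SD, n = 3), against 0.41 ± 0.041 for IGLON5. OLFM1, the close relative of OLFM2, went the other way without passing the test. Its normalized counts of 3218, 3419 and 3116 in control and 3162, 2694 and 2784 in C3 libraries overlapped, with a log2 fold change of -0.18 (SE 0.067, edgeR adjusted p = 0.0655). Without C3 replicate 1 the log2 fold change of OLFM1 was -0.24 (edgeR adjusted p = 0.0031), and after GC correction it was -0.19. Both passed the p-value threshold but not the fold gate.

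Of the regulators, RCOR2 rose, whereas REST and RCOR1 did not pass the test. RCOR2, the neural member of the CoREST family, had normalized counts of 162, 174 and 187 in control libraries and 322, 276 and 287 in C3 libraries. Its log2 fold change was 0.76 (SE 0.11, edgeR adjusted p = 2.59e-05), and the groups did not overlap. REST had 876, 864 and 893 in control cells and 839, 1063 and 1032 after C3. C3 replicate 1 lay below every control library and the other C3 libraries above them, with a log2 fold change of 0.16 (SE 0.079, edgeR adjusted p = 0.159). REST depended on C3 replicate 1. Without it the log2 fold change was 0.26 (SE 0.065) and the edgeR adjusted p = 0.00556, past that threshold but under the fold gate. RCOR1, the widely expressed CoREST gene, had 848, 986 and 1030 against 920, 867 and 983, a log2 fold change of -0.045 (SE 0.077, edgeR adjusted p = 0.739). Per exon length, RCOR1 remained the more abundant of the pair after C3, at 7.99 ± 0.50 FPKM against 5.19 ± 0.43 for RCOR2 (SD, n = 3).

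Within each library, the log2 ratio of counts of RCOR2 to RCOR1 was -2.45 ± 0.056 in control cells and -1.65 ± 0.13 after C3 (SD, n = 3 each). The difference of 0.80 gave p = 0.1 by exact permutation of the library labels (two-sided), the lowest possible with 3 libraries against 3, and 0.12 after adjustment over the 6 ratios examined.

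Of 31 other genes of the REST and CoREST machinery, among them HDAC1, HDAC2, KDM1A and SIN3A, all were tested and 0 were called higher or lower by edgeR, as by DESeq2, where 5.05% and 1.47% of all tested genes were called by edgeR. At an unadjusted p-value below 0.05, 3 were higher and 7 lower, against 16.8% and 15.3% of all tested genes, and the median log2 fold change was 0.026, from -0.43 to 0.31. BTRC, a ubiquitin ligase subunit that targets REST, GTF2I and the corepressor CTBP1 had log2 fold changes of -0.34, -0.34 and -0.27, with edgeR adjusted p-values of 0.00184, 0.00239 and 0.00661. ZNF217 had 0.31, with an edgeR adjusted p of 0.00730. These 4, named after their values were seen, passed the p-value threshold and missed the fold gate. KDM1A, the histone demethylase of the complex, had 4988 ± 90.6 normalized counts in control and 5288 ± 67.3 in C3 cells (SD, n = 3), with a log2 fold change of 0.084 (SE 0.060, edgeR adjusted p = 0.357). Every C3 library exceeded the control libraries in 6 of the 31 genes and the reverse held in 7, against 17.5% and 16.9% of all tested genes.

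**Figure D2:**
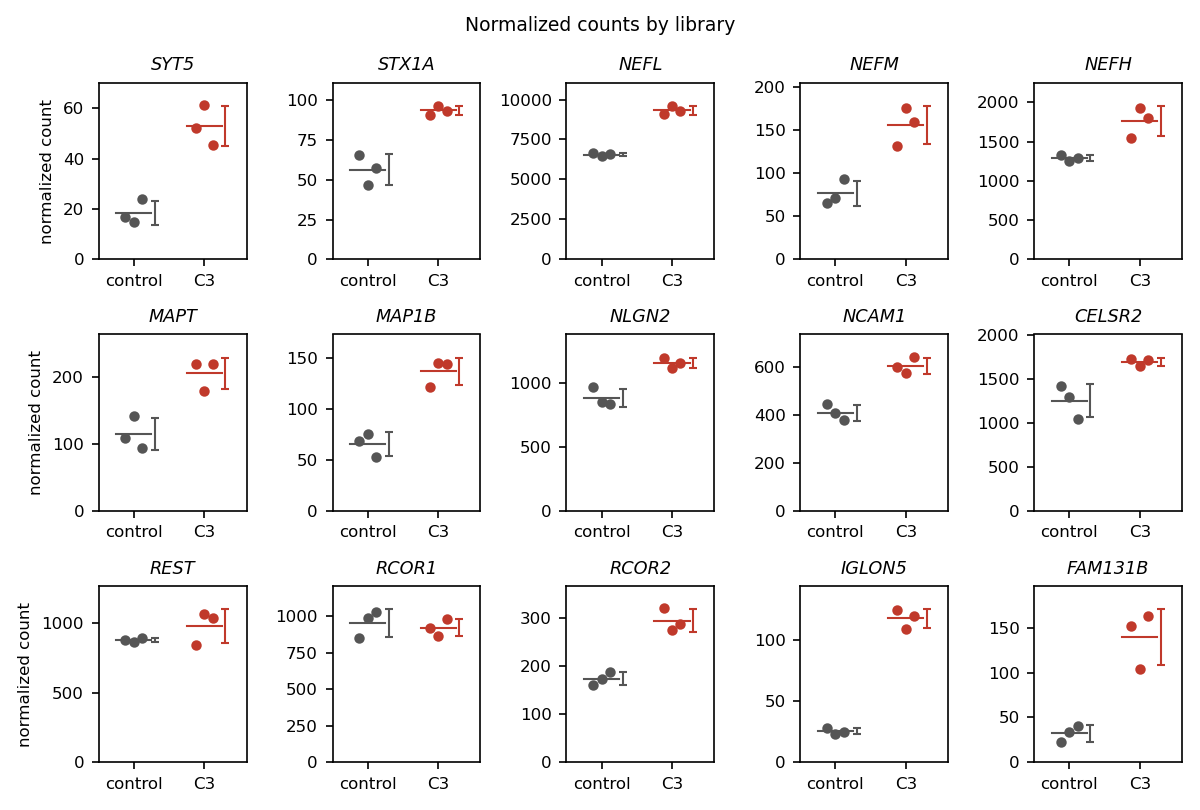
TMM-normalized counts (vertical axes, from 0) of 15 genes in each control and C3 library (points), with group means (lines) and SDs (bars, n = 3). REST and RCOR1 overlap between the groups, and in the other 13 genes the C3 libraries lie above the control libraries.

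Neurofilament genes rose together. NEFL, the light chain on which neurofilaments assemble, was the most abundant of the 47 genes per exon length, at 89.2 ± 1.36 FPKM in control and 126.9 ± 3.72 FPKM in C3 cells (SD, n = 3), and ranked 330 among the 15078 tested genes. Its normalized counts were 6641, 6445 and 6579 in control libraries and 9085, 9619 and 9256 in C3 libraries, a log2 fold change of 0.51 (SE 0.061, edgeR adjusted p = 1.37e-06). NEFH, the heavy chain, had 1333, 1253 and 1287 against 1550, 1928 and 1808, with a log2 fold change of 0.45 (SE 0.073, edgeR adjusted p = 7.51e-05). NEFM, the medium chain, had 65.6, 71.0 and 93.1 against 132, 176 and 159, with a log2 fold change of 1.04 (SE 0.16, edgeR adjusted p = 5.40e-05).

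In all 3 neurofilament genes the groups were apart, with C3 replicate 1 the lowest C3 library in each. The within-library log2 ratio of counts of NEFM to NEFL, not scaled by length, was -6.44 ± 0.27 in control and -5.91 ± 0.17 in C3 cells (SD, n = 3, exact permutation p = 0.1, adjusted 0.12). That of NEFL to NEFH was 2.34 ± 0.024 and 2.41 ± 0.12, with an exact permutation p of 0.6. Genes of the other strand overlap 19.8% of the exon bases of NEFL, 26.4% of NEFM and 9.04% of NEFH, and whether counting used strand is not given in the sources used here. Part of these reads could belong to those genes. INA, the neurofilament-associated internexin gene, had 1 to 6 raw counts in control and 1 to 4 in C3 libraries and was not tested.

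MAP1B and MAPT, which bind microtubules of axons, also rose. MAP1B had 68.6, 75.3 and 52.5 normalized counts in control cells and 122, 145 and 144 after C3 (log2 fold change 1.06, SE 0.17, edgeR adjusted p = 5.02e-05). MAPT, the gene of tau, had 109, 142 and 94.3 against 220, 179 and 220 (0.84, SE 0.15, edgeR adjusted p = 1.89e-04). Both were low per exon length, with 0.59 ± 0.057 and 0.60 ± 0.068 FPKM after C3 (SD, n = 3), and the groups did not overlap. MAP2, the dendritic counterpart, had 4 to 9 raw counts in control and 7 to 13 in C3 libraries and was not tested. The axon and cytoskeleton group thus had 5 of 9 tested genes called higher, against 5.05% of all tested genes.

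The other genes of that group did not pass the test. UCHL1, an abundant neuronal deubiquitinase, had 3113, 3214 and 3280 normalized counts in control and 3247, 3034 and 3107 in C3 libraries (log2 fold change -0.033, SE 0.061). STMN3, a microtubule-destabilizing stathmin, had 753, 762 and 638 against 799, 632 and 713 (-0.012, SE 0.086). DPYSL3, a collapsin response mediator gene, had 763, 865 and 824 against 813, 724 and 718, and its relative CRMP1 58.8, 71.0 and 58.5 against 77.4, 73.7 and 80.0. Their log2 fold changes of -0.12 (SE 0.076) and 0.30 (SE 0.18) had adjusted p-values of 0.274 and 0.278 by edgeR.

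Among 14 synaptic vesicle and release genes, 12 were tested and 2 (16.7%) were called higher, against 5.05% of all tested genes. SYT5, a synaptotagmin of secretory vesicles, had 16.7, 14.8 and 23.9 normalized counts in control libraries and 52.4, 61.3 and 45.5 in C3 libraries. Its log2 fold change of 1.53 (SE 0.28, edgeR adjusted p = 3.06e-04) was the largest of the 33 tested among the 43 genes. STX1A, the neuronal syntaxin of the plasma membrane, had 65.6, 46.7 and 57.3 against 91.1, 96.7 and 93.3. Its log2 fold change was 0.72 (SE 0.18, edgeR adjusted p = 0.00553). The groups of both genes were apart, but the call of STX1A was lost in DESeq2 and without any one of control replicates 2 and 3 and C3 replicates 2 and 3, when its log2 fold change stayed at 0.60 or above.

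Of the other SNARE genes, VAMP2, the synaptobrevin of vesicles, had 678, 722 and 745 in control and 821, 813 and 764 in C3 libraries (log2 fold change 0.16, SE 0.073, edgeR adjusted p = 0.127). SNAP25 was near the detection limit, with 10 to 20 raw counts in every library. RAB3A, a vesicle GTPase, had 192, 190 and 174 against 232, 229 and 242, and SYN2, a synapsin, 111, 122 and 129 against 138, 170 and 156. Their C3 libraries were all above the control libraries, with log2 fold changes of 0.34 and 0.37 and adjusted p-values of 0.0338 and 0.0622 by edgeR. These missed the gates.

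APBA2, an adaptor protein gene of presynaptic terminals, was the most abundant of this group per exon length, at 33.7 ± 1.53 FPKM in control and 32.2 ± 1.46 FPKM in C3 cells (SD, n = 3). Its normalized counts were 4364, 4474 and 4094 against 4339, 3986 and 4052 (log2 fold change -0.064, SE 0.063). SYT11 had 382, 349 and 338 against 393, 351 and 377, and SYP, the vesicle protein synaptophysin, 159, 156 and 121 against 157, 141 and 150. Their groups overlapped. CPLX1, a complexin that clamps the SNARE complex, had 43.1, 32.9 and 41.8 against 23.9, 37.3 and 25.9 (log2 fold change -0.43, SE 0.27, edgeR adjusted p = 0.289), the lowest value of the group. SYN1 and BSN, a scaffold of the active zone, had log2 fold changes of -0.32 and -0.11 with SEs of 0.46 and 0.29, so that changes of 1.3-fold could not be seen at these counts.

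Of 9 neural adhesion genes, 6 were tested, all 6 with positive values, and 3 were called higher, against 5.05% of all tested genes. NCAM1, the neural cell adhesion molecule, had 445, 407 and 377 normalized counts in control libraries and 599, 575 and 642 in C3 libraries (log2 fold change 0.56, SE 0.085, edgeR adjusted p = 3.30e-05). CELSR2, an atypical cadherin of planar cell polarity, had 1421, 1288 and 1045 against 1725, 1642 and 1718 (0.43, SE 0.080, edgeR adjusted p = 3.38e-04). NLGN2, the neuroligin of inhibitory synapses, had 965, 846 and 836 against 1196, 1111 and 1155 (0.39, SE 0.072, edgeR adjusted p = 3.88e-04).

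The groups were apart in all 3 genes. The fold change of NLGN2, 1.31, was just past the gate and fell below it in 6 of 15 alternative analyses, and CELSR2 lost its call without control replicate 3, at a log2 fold change of 0.32. NRXN2, a neurexin that pairs with neuroligins, lay just outside the gate at a log2 fold change of 0.35 (SE 0.099, edgeR adjusted p = 0.0134), with 249, 264 and 273 against 357, 319 and 326. CELSR3 and NRCAM had log2 fold changes of 0.28 (SE 0.12) and 0.76 (SE 0.37), with overlapping groups and adjusted p-values of 0.119 and 0.156 by edgeR. With each library left out, CELSR3 ranged from 0.19 to 0.48 and NRCAM from 0.44 to 1.08, and neither was called.

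The dense-core granule genes were low. VGF, a neuropeptide precursor gene, had 76.4, 52.0 and 65.7 normalized counts in control and 55.8, 74.6 and 58.8 in C3 libraries (log2 fold change -0.038, SE 0.20). SCG5, a chaperone of prohormone processing, had 10 to 13 raw counts in control and 10 to 16 in C3 libraries, and 51.4% of its exon bases lie in a readthrough gene of the same strand. CHGA, the granule protein chromogranin A, had at most 1 count in any library.

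**Figure D3:**
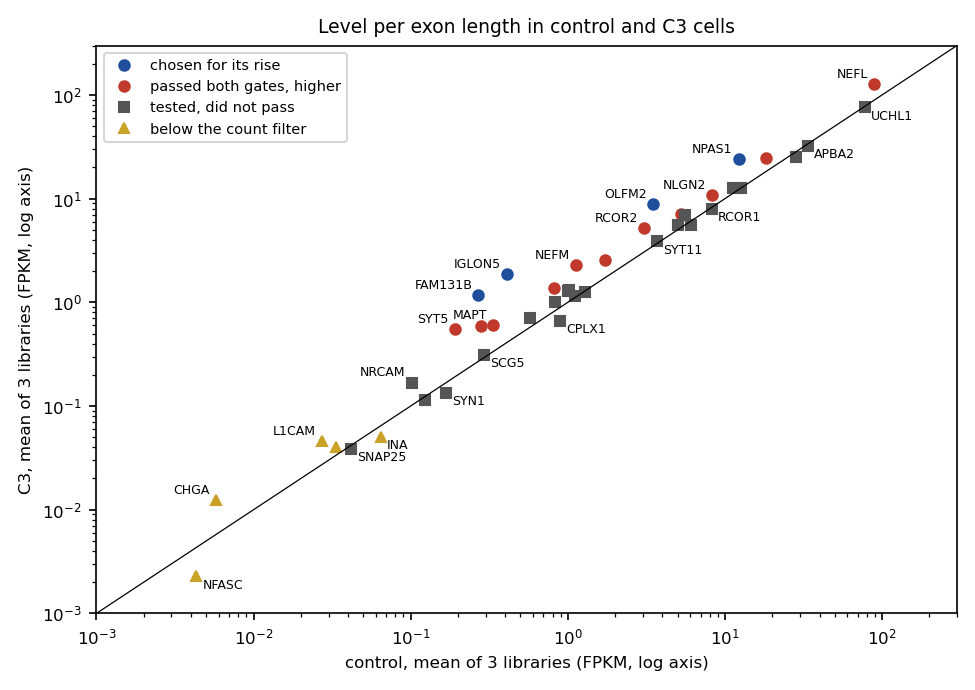
Mean level of each gene in control (horizontal) and C3 cells (vertical), in FPKM on log axes, for genes with a count in both groups; the line marks equal levels. The genes chosen for their rise and those that passed both gates lie above the line at levels from 0.19 FPKM (SYT5) to 89.2 FPKM (NEFL) in control cells.

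Below the count minimum were 10 genes, and neither group had more than 13 counts of any of them in a library. SYT1, the main calcium sensor of synaptic release, and STMN2, a marker of growing axons, had a count of 0 in all 6 libraries, which allows up to 3 counts or 0.0268 CPM over the 6. CPLX2 had 0 counts in the 3 control libraries and 0, 3 and 2 in C3 libraries 1 to 3. GAP43, a growth cone gene, had 0 in control and 0, 2 and 3 in C3 libraries. Both stayed within 3 counts per library, and their exact permutation p-values were 0.4. L1CAM, an axonal adhesion gene, had 3, 2 and 5 counts in control and 5, 7 and 8 in C3 libraries, also with overlapping groups after normalization. NFASC and CNTN2, genes of the node of Ranvier, had at most 3 and 2 counts in any library.

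Summed over these 10 genes, the control libraries had 22, 15 and 13 counts and the C3 libraries 18, 26 and 29, which are 1.16, 0.853 and 0.833 CPM against 1.10, 1.33 and 1.22 CPM. The sums overlapped between the groups. In these bulk samples, few cells with much RNA of a gene and many cells with little cannot be told apart.

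**Figure D4:**
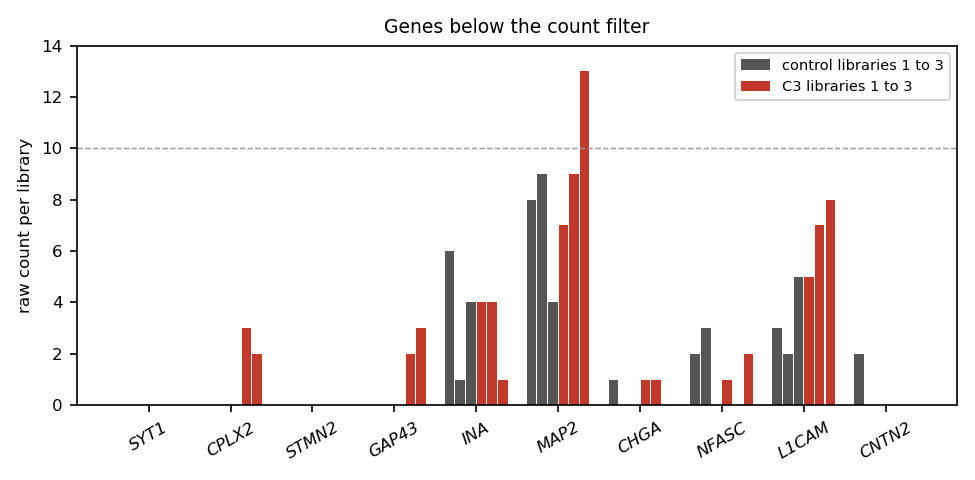
Raw counts (vertical axis) of the 10 genes below the count minimum in each control and C3 library (bars); the dashed line marks 10 counts. SYT1 and STMN2 have no counts, CPLX2 and GAP43 have up to 3 counts in C3 libraries and 0 in control libraries, and MAP2 alone reaches 10 in 1 library.

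Promoters were examined because REST acts through a DNA motif. RefSeq promoter windows on GRCh38.p14, from 250 bases before to 50 bases after a gene's start, were found for 37 of the 47 genes (61 windows). SNAP25, CPLX1, STMN2, NEFL, NEFM, NEFH, MAPT, NRXN2, NCAM1 and RCOR2 had none in the table. The search covered both strands for the left arm of RE1, TTCAGCACC, and for the start of its right arm, GGACAGCG, which do not overlap each other. The left arm was in the windows of SYN1 and CELSR3, against 0.376% of all 35116 windows, and the right arm in those of BSN, CELSR3, GAP43, REST and VGF, against 1.63%. Of these 6 genes, 5 were tested and not called, with CELSR3 the one at an unadjusted edgeR p-value below 0.05, and GAP43 was below the count minimum. With so few windows, nothing is read from this. The windows do not cover introns or distant sites, where RE1 motifs also occur. Shown are the SYN1 and CELSR3 windows, with the bases of RE1 in capitals. SYN1 has the left arm followed after 2 bases by the first 6 bases of the right arm, at base 18 of its window on the printed strand, an arrangement found in 5 of all windows and looked for after the arms were seen. In CELSR3 the arms are apart and in the opposite order.

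SYN1 (chrX:47619808-47620107, reverse strand, GRCh38): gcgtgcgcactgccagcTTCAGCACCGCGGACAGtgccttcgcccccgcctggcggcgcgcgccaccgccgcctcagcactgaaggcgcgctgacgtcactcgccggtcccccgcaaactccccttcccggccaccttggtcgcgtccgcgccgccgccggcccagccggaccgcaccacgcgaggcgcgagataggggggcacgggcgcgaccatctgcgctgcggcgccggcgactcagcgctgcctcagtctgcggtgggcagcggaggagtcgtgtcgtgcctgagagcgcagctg

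CELSR3 (chr3:48662837-48663136, reverse strand, GRCh38): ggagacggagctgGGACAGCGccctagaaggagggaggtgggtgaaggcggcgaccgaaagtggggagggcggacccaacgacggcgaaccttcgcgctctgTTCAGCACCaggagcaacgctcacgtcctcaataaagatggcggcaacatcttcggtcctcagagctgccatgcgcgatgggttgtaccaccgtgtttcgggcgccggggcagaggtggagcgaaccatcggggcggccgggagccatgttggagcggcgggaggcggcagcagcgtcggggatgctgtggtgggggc

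SYN1 had raw counts of 14, 11 and 8 in control and 5, 16 and 9 in C3 libraries, and 24.9% of its exon bases overlap another gene of the same strand. CELSR3 had 268, 181 and 154 raw counts against 218, 266 and 348. Neither gene passed the test.

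The GC box GGGCGG was found on either strand in windows of 8 of the 9 called genes with a window and of 31 of all 37 genes, whereas 45.0% of all windows hold it. As 4 of the 9 were chosen for their rise and supply 7 of their 14 windows, these values are a description of the genes shown. By windows, 72.1% of the 61 held it. The median GC share was 69.2% in the 14 windows of called genes, 71.3% in the 33 of tested genes that were not called and 58.7% in all windows. The medians of CpG per window were 28.5, 31 and 14. The 9 untested genes with a window had a median of 9.5 CpG. The windows of IGLON5, the largest rise of the tested genes in the main analysis, and STX1A, with 7 GC boxes, are given. Their GC boxes are in capitals, read on either strand.

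IGLON5 (chr19:51311394-51311693, forward strand, GRCh38): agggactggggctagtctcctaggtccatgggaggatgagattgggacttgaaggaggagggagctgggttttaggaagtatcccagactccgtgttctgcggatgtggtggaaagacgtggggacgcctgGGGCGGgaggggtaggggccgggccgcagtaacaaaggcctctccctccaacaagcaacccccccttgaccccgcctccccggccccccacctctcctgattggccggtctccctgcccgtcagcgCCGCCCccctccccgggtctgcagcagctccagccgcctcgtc

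STX1A (chr7:73719620-73719919, reverse strand, GRCh38): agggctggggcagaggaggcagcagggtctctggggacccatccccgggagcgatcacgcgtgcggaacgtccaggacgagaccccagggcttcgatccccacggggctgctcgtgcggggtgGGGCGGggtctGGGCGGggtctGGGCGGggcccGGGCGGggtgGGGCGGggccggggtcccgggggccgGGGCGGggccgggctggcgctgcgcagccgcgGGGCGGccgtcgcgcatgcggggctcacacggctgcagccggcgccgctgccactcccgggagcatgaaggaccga

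IGLON5, NPAS1, OLFM2, SYT5 and RAB3A lie on chromosome 19, which holds 10.6% of the 47 genes and 7.32% of all tested genes. Of these 5, the first 3 were chosen for their rise, so nothing is read from their calls. In GRCh38 coordinates of GENCODE 44, IGLON5 spans chr19:51311644-51330891 on the forward strand, NPAS1 chr19:47019837-47045775 on the forward strand, OLFM2 chr19:9853718-9936515 on the reverse strand and SYT5 chr19:55171196-55180289 on the reverse strand. OLFM2 lies on the opposite arm from the other 3. None of the 4 shares exon bases with another annotated gene.

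A further 90 neuronal genes held to carry REST sites, were listed by hand from general knowledge. Of these, 56 were below the count minimum, 19 of them at 0 in every library. Of 34 tested genes, 7 (20.6%) were called higher and 0 lower by edgeR, against 5.05% and 1.47% of all tested genes. The median log2 fold change was 0.20, from -1.15 to 1.75, with 26 positive and 8 negative. At an unadjusted edgeR p-value below 0.05, 12 were higher and 1 was lower, against 16.8% and 15.3% of all tested genes. Of the genes at 0, CELF6 and TUBB3 overlap same-strand genes over 93.3% and 21.3% of their exon length, so that a 0 there need not mean absent RNA. SYT7, a synaptotagmin of slow release, had 245, 234 and 179 normalized counts in control and 395, 362 and 361 in C3 libraries (log2 fold change 0.75, edgeR adjusted p = 2.09e-05). UNC13A, which primes vesicles, had 490, 468 and 421 against 617, 595 and 693 (0.47, edgeR adjusted p = 2.94e-04). KIF5C, an axonal kinesin, had 15.7, 12.7 and 10.7 against 39.8, 44 and 35.3 (1.58, edgeR adjusted p = 7.30e-04). CHRM4, a muscarinic receptor gene long used to study REST, had 18.6, 25.4 and 20.3 against 45.5, 42.1 and 50.2 (1.10, edgeR adjusted p = 0.00468). JPH3 had 9, 5 and 5 raw counts in control and 22, 29 and 22 in C3 libraries and passed the count minimum through the C3 libraries alone. Without it, 6 of 33 tested genes (18.2%) were called higher. The groups did not overlap in these 5 genes, which were named for their calls. Over the 34 tested genes, every C3 library exceeded every control library in 14 and the reverse held in 2. Among all tested genes the shares were 17.5% and 16.9%. The 7 called higher became 4 of 28 tested in DESeq2, which called 4.13% of all genes with an adjusted p higher. It was 3 of 33 without control replicate 3 and 3 of 31 without C3 replicate 3. Calls over all tested genes fell too, from 761 of 15078 in the main analysis. They were 584 of 14970 without control replicate 3 and 516 of 14701 without C3 replicate 3.

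The labelled cell type was checked with markers. The megakaryocyte genes ITGA2B (11611 to 13336 normalized counts over the 6 libraries), GATA1 (1759 to 1966) and FLI1 (4555 to 5111) were abundant in every library, whereas PF4 and GP1BB, of which 52.1% and 100% of exon bases overlap other genes of the same strand, were listed at 0. Of 25 such markers, 23 were tested, 3 were called higher and 2 lower by edgeR, against 5.05% and 1.47% of all tested genes. THBS1, the thrombospondin of platelet granules, CD9 and FYB1 had log2 fold changes of 0.91, 1.02 and 0.44, and GP1BA, a subunit of the von Willebrand factor receptor, and TUBB1, the tubulin of platelets, -0.49 and -1.36. The summed markers were 61333 to 63096 normalized counts in control and 61590 to 63930 in C3 libraries. Of 16 neuron markers, 7 of which are also in the list of REST-site genes, 5 were tested. Of these, 3 were called higher by edgeR and 2 by DESeq2, a small number to set against that 5.05%. SLC17A7, the vesicular glutamate transporter, rose from 11.1 ± 6.91 to 41.3 ± 14.7 normalized counts, RBFOX3, the NeuN gene, from 62.3 ± 9.12 to 101 ± 8.5, and POU4F1, a sensory neuron transcription factor, from 906 ± 66.6 to 1218 ± 48.6 (SD, n = 3). TUBB3, DCX, ELAVL3, NEUROD6, SLC17A6 and TH were at 0 in all libraries. The summed neuron markers were 1124 to 1267 normalized counts in control and 1597 to 1741 in C3 libraries, of which POU4F1 was the larger part. Genes of the other strand overlap 27.7% of its exon bases. Of 10 glia markers, 4 were tested and 0 were called by edgeR or by DESeq2. At an unadjusted edgeR p-value below 0.05, 1 was lower and 0 higher, against 15.3% and 16.8% of all tested genes. The sums of the glia markers were 2502 to 2583 in control and 2178 to 2385 in C3 libraries, with MOG at 0. Of 12 fibroblast and epithelial markers, 7 were tested. By edgeR 1 was called higher and 1 lower, against 5.05% and 1.47% of all tested genes, and by DESeq2 0 higher and 1 lower. LUM, called lower by edgeR, fell from 709 ± 91.6 to 449 ± 23 normalized counts (SD, n = 3). COL1A1, called higher by edgeR, passed the count minimum through the C3 libraries alone, and without it 0 of 6 were called higher. The sums over the 12 markers, 2917 to 3318 in control and 2448 to 2694 in C3 libraries, did not overlap. The part of these markers in the rises above was not tested.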

How the data were processed

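RNA of untreated and C3-treated Meg-01 cells was sequenced in 3 libraries per group. Per the labels and methods, the authors filtered reads with fastp, aligned these with STAR 2.6.1d on GRCh38/hg38 and counted them with featureCounts 1.5.0-p3. The deposited values are raw counts per Ensembl gene; the sources used here do not give the annotation release or the strand setting. GENCODE 44 gave a symbol and position to 58207 of 58735 identifiers.

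The 15078 genes that reached 10 counts in 3 or more libraries were compared with edgeR 4.0.16 (R 4.3.3), TMM factors, the quasi-likelihood test and Benjamini-Hochberg adjustment over all of them, without a replicate block. Calls required an adjusted p below 0.01 and a fold change above 1.3. For normalized counts, each count was divided by its effective library size and multiplied by the mean of these sizes, FPKM uses merged exon length, and standard errors are the log2 fold change over the square root of F. p-values measure only the spread between these libraries. Same-numbered libraries did not deviate together, with correlations of 0.021, -0.047 and 0.030. With 3 libraries per group this cannot show whether the numbers mark pairs, which the labels do not state.

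All members are accounted for. Named in full by rule were the 4 genes chosen for their rise, REST, RCOR1, RCOR2, called members, members whose mean normalized count reached 500 and the highest of each role; other lists give at most 6 called genes by p-value, and a few list genes are not reported here. Lists were written by hand, and members and lists were chosen with earlier results of these data known. Alternatives were DESeq2 1.42.0, limma-voom (limma 3.58.1), RLE factors, scaling by library size alone, a filter on a mean count of 50 or none, a replicate block, GC content correction (loess, span 0.3) with and without the block, other gates and each library left out. Intervals and floors cover counting error only.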

Additional observations from a re-analysis of the deposited data

How the results depend on the processing

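The number of the 43 genes called higher was 11 in the main analysis, 9 in DESeq2, 12 with library size alone and 8 to 11 with each library left out, the fewest without control replicate 3. In no alternative run was any of them called lower. The fit with the replicate number as a block also gave 11, and it changed no call of a member. The calls over all tested genes moved as well. Of 15078 genes, 761 were called higher in the main analysis, 1024 with library size alone and 909 with the block. In DESeq2 it was 561 of 13568. With each library left out, 516 to 766 genes were called higher, with 584 of 14970 without control replicate 3. SYT5, NEFL, NEFM, NEFH, MAPT, MAP1B, NCAM1 and RCOR2 kept their call in every alternative that tested them, whereas STX1A, NLGN2 and CELSR2 did not, and NRXN2 passed the gates with library size alone. The median log2 fold change of the tested members beside the 4 chosen ranged from 0.24 to 0.30 with each library left out. It was 0.35 with library size alone, a scaling that gave 91.0% instead of 77.4% higher calls over all genes.

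Of the 31 REST machinery genes, 1 was called higher with library size alone, against 1024 of all 15078 tested genes. With each library left out, 0 to 1 were called lower, against 129 to 340 of all tested genes. Of the neuronal genes with REST sites, 7 of 34 tested were called higher in the main analysis. It was 4 of 28 in DESeq2 and 4 of 21 with a mean count of at least 50. Over all genes these fits called 761 of 15078, 561 of 13568 and 686 of 11854 higher. With each library left out, 3 to 6 of these neuronal genes were called higher, against 516 to 766 of all tested genes. Of the 42 tested paralogs, 2 were called lower after GC correction instead of 1. Over all tested genes it was 299 of 15018 after that correction and 222 of 15078 without it. The cause of these shifts was not tested. Genes near 10 counts, such as SYN1, SNAP25 and SCG5, had standard errors of 0.37 to 0.46, so that only large changes could pass.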

Other observations

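Paralogs of the neuron-typical genes, 72 in all, were also examined. Of these, 42 were tested, 6 (14.3%) were called higher and 1 lower, against 5.05% and 1.47% of all tested genes, with a median log2 fold change of 0.13, while 30 were below the count minimum and 7 of those had no counts, among them CPLX3, which overlaps a same-strand gene over 99.7% of its exon length. CELSR1, which was not called, passed the count minimum through the C3 libraries alone. Without it, 6 of 41 (14.6%) were called higher. VAMP8, the main SNARE of platelet granule release, fell from 962 ± 31.5 to 659 ± 38.5 normalized counts (SD, n = 3 libraries each), a fall of 0.55 on the log2 scale (standard error 0.072, adjusted p = 5.87e-06 by edgeR's quasi-likelihood test), while VAMP2 did not pass the test. DPYSL5 and SYT3 had log2 fold changes of 0.61 and 0.83, with adjusted p-values of 2.07e-05 and 2.42e-05 by edgeR. SYT17 rose from 19 ± 2.06 to 61.5 ± 14.7 normalized counts (SD, n = 3), and FAM131C, a relative of FAM131B, from 70.4 ± 9.94 to 143 ± 20.5 (SD, n = 3). Their log2 fold changes were 1.71 and 1.00, and that of SYPL2, a relative of synaptophysin, was 0.77. The groups did not overlap in any of these called genes, which were named for their calls. Over the 42 tested paralogs, every C3 library exceeded every control library in 11 and the reverse held in 7. Among all tested genes the shares were 17.5% and 16.9%.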
